A study of Mus musculus with 4 samples.

Results

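The 42 genes described here make up the lipid programme of the fat cell, covering uptake, fatty acid synthesis, triglyceride assembly, droplet storage, lipolysis and adipokines. They were taken by symbol from tables of 20207 genes. Of the 42 genes, 38 were listed under their current symbol. The perilipins Plin1, Plin2, Plin3 and Plin4 were listed as Plin, Adfp, M6prbp1 and S3-12, and were matched through RefSeq synonyms. The genes were measured by RNA sequencing in 4 libraries of adipocyte precursor cells, the stromal cells of adipose tissue that can become fat cells. The libraries were 2 labelled Per3 KO, from mice lacking the circadian clock gene Per3, and 2 from wild-type (WT) littermates. All mice were young C57BL/6 animals sampled at ZT2, 2 h into the light phase, and all cells were freshly sorted as Sca1+ CD45- CD31-, a gate that leaves out blood and endothelial cells. The sources used here do not give the kind of Per3 allele, the fat depot, the sex or the number of animals per library. The p-values therefore measure the spread between these libraries, which may be technical.

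In a fat cell, fatty acids reach the cytoplasm by lipoprotein lipase at the vessel wall and by carriers at the membrane, or are built from citrate by ATP citrate lyase, acetyl-CoA carboxylase and fatty acid synthase. They are joined to glycerol 3-phosphate stepwise into triglyceride, which is kept in droplets coated by perilipins. Lipases release them again, and the balance of storage and release follows insulin, catecholamines and the time of day. Precursor cells carry part of this equipment before they fill with fat.

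Total gene reads were 40003115 and 64964443 in Per3 KO 1 and Per3 KO 2, and 37101227 and 27950825 in WT 1 and WT 2. Per3 itself had 193 and 768 reads in the KO-labelled libraries against 121 and 170 reads in WT, so its count did not separate the labels. A count over the whole gene cannot show whether part of it was deleted, and the libraries are called KO-labelled. The precursor and fibroblast markers Pdgfra and Cd34 were present in every library, at 211 to 453 CPM and 853 to 1573 CPM (counts per 1e6 reads of the TMM-scaled library). Others of the 11 markers on that list were less even. Ly6a (Sca1) was at 3767 and 2133 CPM in KO-labelled libraries and 2597 and 14274 CPM in WT. Lum was at 3782 and 3244 CPM in KO-labelled libraries and 4334 and 727 CPM in WT. WT 2 stood apart most often, with the lowest value of the 4 for 35.0% of all genes tested. Hepatocyte transcripts differed widely between libraries, and their levels are given beside genes that are also made in liver.

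The programme held both abundant and undetected genes. By mean RPKM over the 4 libraries, which scales reads by transcript length and library total, 2 of the 42 genes stood at 100 or more, 12 between 10 and 100, 14 between 1 and 10, and 14 under 1. Of all 20207 genes, 59.0% were under 1. The highest was Lpl, lipoprotein lipase, at 234 and 280 RPKM in KO-labelled libraries and 432 and 124 RPKM in WT. It was followed by Fabp4, the fatty acid carrier of adipocytes and endothelium, at 144 and 164 RPKM in KO-labelled libraries and 149 and 488 RPKM in WT. Car3, a carbonic anhydrase abundant in fat cells, came next with a mean of 58.6 RPKM, and Plin2, the droplet coat found in most cell types, with 35.4 RPKM.

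At the other end, Lep, which encodes leptin, and Cidea, a droplet protein of brown fat, had 0 reads in all 4 libraries. A count of 0 allows up to 0.0724 and 0.0412 CPM in Per3 KO 1 and Per3 KO 2, and up to 0.0783 and 0.129 CPM in WT 1 and WT 2 (a floor of 3 reads, counting error only). Plin1, the coat of the large fat-cell droplet, had 16 and 1 reads in KO-labelled libraries against 86 and 1 in WT. Hormone-sensitive lipase, Lipe, had 0 and 68 reads in KO-labelled libraries against 90 and 0 in WT. The adipokine resistin, Retn, had 10 and 0 reads against 33 and 1. Plin1, Cidec, Lep, Retn and Lipe thus had 5 or fewer reads in at least 1 library of each group, whereas Adipoq, Cfd and Car3 were not. The 42 genes together took 0.387% and 0.445% of gene reads in KO-labelled libraries and 0.529% and 0.280% in WT. Lpl alone made up 45.0% and 48.1% of these reads in KO-labelled libraries and 60.6% and 36.8% in WT.

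**Figure D1:**
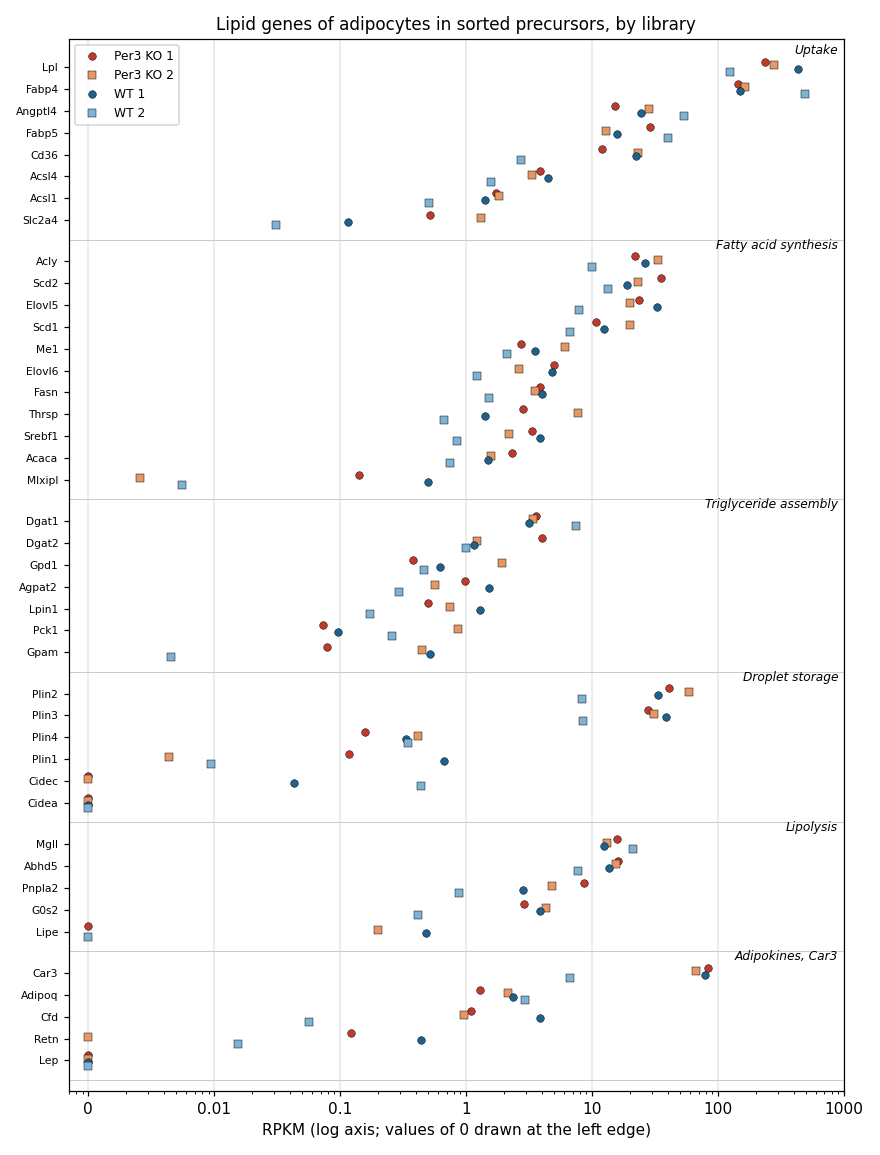
RPKM of the 42 genes in each library on a log axis, grouped by role and ordered by mean within a role, with red and orange points for Per3 KO 1 and 2 and dark and light blue points for WT 1 and 2 (values of 0 at the left edge, points shifted slightly in height). Lpl and Fabp4 lie above 100 on average, Lep and Cidea are at 0 in every library, and WT 2 is the leftmost point of many rows. RPKM does not carry the TMM factor, which was lowest for WT 2 (0.832), so WT 2 lies lower here than in CPM. Scd2, for example, was at 18.8 and 13.5 RPKM in WT 1 and WT 2, but at 182 and 181 CPM.

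The comparison asked how the KO-labelled precursors differ from WT in this programme. None of the genes passed the test. Of the 38 genes with enough reads to test, 22 were above 0 and 16 below 0 in log2 fold change of KO-labelled over WT, with a median of 0.18, beside a median of 0.01 over all 12494 genes tested. At an adjusted p under 0.05 (edgeR quasi-likelihood test, Benjamini-Hochberg over all genes), 0 of 38 were called, against a background of 0.0% (0 of 12494). DESeq2 and limma on log2(RPKM + 0.5) likewise called 0 members, where they called 0.134% and 0.0121% of all genes. At an unadjusted p under 0.05 in edgeR there were 3 of 38 (7.89%), Pnpla2, Slc2a4 and Thrsp, beside 2.06% of all genes tested. With each library left out in turn, the log2 fold change ran from 1.18 to 2.51 for Pnpla2 and from 2.70 to 4.35 for Slc2a4. For Thrsp it ran from 1.27 to 2.62. The groups of these genes were apart, so their constant sign follows from that. Such fits leave 1 library in a group, so p-values from them are not counted here. In CPM, 7 genes (18.4%) lay higher in both KO-labelled libraries than in both WT libraries, where 14.6% of all genes tested did. Only 1 gene (2.63%) lay lower in both, where 11.5% of all genes tested did. Together that is 21.1% of the tested members against 26.0% of all genes tested, a share below the background. With so few genes, little can be read from these shares. With 2 libraries against 2, an exact permutation test of a single gene cannot go below p = 0.333. In bulk samples, fewer cells of a type and less RNA per cell cannot be told apart.

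**Figure D2:**
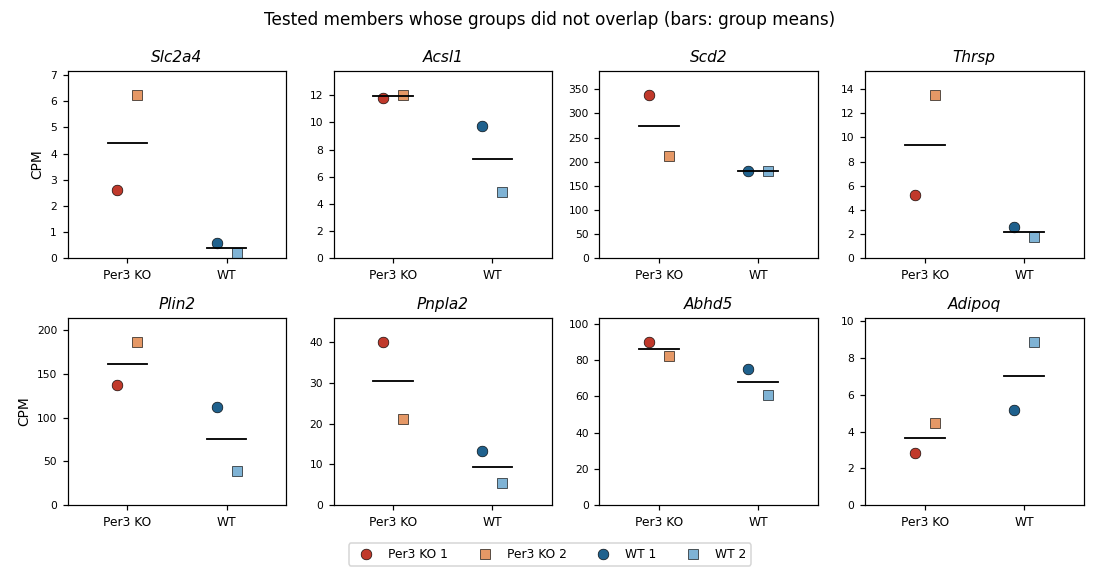
CPM in each library for the 8 tested genes whose groups did not overlap, KO-labelled left and WT right, with bars at group means and axes from 0. Slc2a4, Acsl1, Scd2, Thrsp, Plin2, Pnpla2 and Abhd5 were higher in both KO-labelled libraries and Adipoq was lower, and none passed the adjusted test.

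Lipolysis held the member with the smallest unadjusted p. Pnpla2 encodes ATGL, the lipase that takes the first fatty acid off triglyceride (mm9 chromosome 7, 148641087 to 148646642). It had 40.0 and 21.2 CPM in Per3 KO 1 and Per3 KO 2, against 13.3 and 5.37 CPM in WT 1 and WT 2. The lowest KO-labelled library thus lay above the highest WT library, and the 2 libraries of each group also differed from each other. The log2 fold change was 1.71 ± 0.67 (SE), with an edgeR unadjusted p of 0.0359 and an adjusted p of 1.00. It was 2.51 without WT 1 and 1.18 without Per3 KO 1.

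Abhd5, also called CGI-58, is the coactivator that ATGL needs (chromosome 9, 122260734 to 122290641). It was at 89.8 and 82.4 CPM in KO-labelled libraries and 75.3 and 60.5 CPM in WT, with a log2 fold change of 0.34 ± 0.48 (SE, edgeR adjusted p = 1.00). Its groups did not overlap, but the difference was smaller than its standard error. G0s2, the small protein that inhibits ATGL, was at 4.32 and 6.11 CPM in KO-labelled libraries against 5.79 and 0.860 CPM in WT, where the groups overlapped. Mgll, the monoglyceride lipase of the last step, was the most abundant lipolysis gene per length (chromosome 6, 88674822 to 88778351). It stood at 108 and 85.7 CPM in KO-labelled libraries and 85.8 and 203 CPM in WT. Its log2 fold change of -0.58 ± 0.59 (SE, edgeR adjusted p = 1.00) rested on the high WT 2 and was 0.17 without it. Of the 5 lipolysis genes, 3 were above 0 and 2 below 0 in log2 fold change, and 0 passed the adjusted test.

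Uptake genes went in both directions, with 4 of 8 positive and 0 called. Slc2a4 encodes GLUT4, the insulin-responsive glucose transporter, which supplies carbon for glycerol and fatty acids (chromosome 11, 69755788 to 69761692). It had 108 and 454 reads in KO-labelled libraries against 22 and 5 in WT, which is 2.61 and 6.23 CPM against 0.574 and 0.215 CPM. All 4 values were low, and the groups were apart. The log2 fold change was 3.47 ± 1.41 (SE, edgeR unadjusted p = 0.0423, adjusted p = 1.00). It was 4.35 without WT 1, 2.70 without Per3 KO 2, and 1.25 in limma on log2(RPKM + 0.5) without a filter, a scale that understates the change of low genes. GLUT4 is also a muscle gene, and the 6 skeletal muscle markers summed to 19.8 and 21.3 CPM in KO-labelled libraries and 54.7 and 87.0 CPM in WT. Of these, 4 lay lower in both KO-labelled libraries, whereas Acta1 and Ckm overlapped, and the WT 2 sum was mostly Tnnc2, at 64.4 CPM. The part of muscle RNA in the Slc2a4 level was not tested.

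Acsl1, the acyl-CoA synthetase that activates fatty acids for storage (chromosome 8, 47556396 to 47621404), was at 11.8 and 12.0 CPM in KO-labelled libraries and 9.71 and 4.90 CPM in WT. Its log2 fold change was 0.70 ± 0.68 (SE, edgeR adjusted p = 1.00), with 1.28 without WT 1 and 0.30 without WT 2. Its relative Acsl4, which prefers arachidonic acid, overlapped between groups, at 34.3 and 27.8 CPM in KO-labelled libraries and 39.4 and 19.5 CPM in WT. Lpl (chromosome 8, 71404454 to 71430831) was at 1682 and 1907 CPM in KO-labelled libraries and 3100 and 1237 CPM in WT. Both KO-labelled values lay between the WT ones. The log2 fold change of Lpl was -0.27 ± 0.74 (SE, edgeR adjusted p = 1.00), and it was 0.54 without WT 1 and 0.15 with limma on log2(RPKM + 0.5). Cd36, the fatty acid receptor at the membrane, was at 72.7 and 133 CPM in KO-labelled libraries and 133 and 22.7 CPM in WT.

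Fabp4, Fabp5 and Angptl4 shared another pattern, with the highest value in WT 2. Fabp4 was at 164 and 177 CPM in KO-labelled libraries and 169 and 773 CPM in WT, so that 3 libraries stood together and 1 stood apart. The related carrier Fabp5 was at 47.5 and 20.2 CPM in KO-labelled libraries and 26.2 and 91.6 CPM in WT. Angptl4, the secreted inhibitor of lipoprotein lipase, was at 51.0 and 90.1 CPM in KO-labelled libraries against 82.1 and 251 CPM in WT. WT 2 also had the most reads of Gpihbp1, which anchors lipoprotein lipase on capillary endothelium, with 0 and 49 reads in KO-labelled libraries against 0 and 282 in WT. The 8 endothelial markers, which include Fabp4 and Cd36, summed to 308 and 478 CPM in KO-labelled libraries and 460 and 941 CPM in WT, and 4 of 8 had a positive log2 fold change. Fabp4 itself made up 773 of the 941 CPM in WT 2. The other 6 endothelial markers, without Fabp4 and Cd36, summed to 72.0 and 169 CPM in KO-labelled libraries and 157 and 146 CPM in WT. Most of that sum was Tek, at 63.8 and 161 CPM in KO-labelled libraries and 155 and 122 CPM in WT. Pecam1, Cdh5 and Gpihbp1 were highest in WT 2, at 8.86, 2.06 and 12.1 CPM there, whereas Tek, Kdr and Emcn were not. The part of endothelial RNA in the Fabp4 level was not tested.

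In fatty acid synthesis, 9 of 11 genes were above 0 in log2 fold change, with a median of 0.40, beside 50.6% of all genes tested, and 0 passed. Without WT 2 the count was 6 of 11 with a median of 0.03, and without WT 1 it was 11 of 11 with a median of 0.95. Of all genes tested, 53.7% were above 0 without WT 2 and 55.5% without WT 1. The genes of this role were lowest in WT 2 in 9 of 11 cases, the exceptions being Me1 and Mlxipl. Acly, ATP citrate lyase, was the most abundant per length (chromosome 11, 100337670 to 100389215). It was at 168 and 241 CPM in KO-labelled libraries and 200 and 106 CPM in WT, which overlapped, with a log2 fold change of 0.42 ± 0.58 (SE, edgeR adjusted p = 1.00), or 0.03 without WT 2. Acetyl-CoA carboxylase, Acaca, was at 37.0 and 24.0 CPM in KO-labelled libraries and 24.1 and 16.5 CPM in WT. Fatty acid synthase, Fasn, was at 68.6 and 58.7 CPM in KO-labelled libraries and 70.0 and 37.3 CPM in WT. For each of these 3 enzymes WT 1 lay above the lower KO-labelled library.

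Thrsp, also called Spot 14, a nuclear protein tied to lipogenic gene expression, differed most within this role (chromosome 7, 104561467 to 104566020). It was at 5.24 and 13.5 CPM in KO-labelled libraries and 2.61 and 1.72 CPM in WT. The log2 fold change was 2.11 ± 0.88 (SE, edgeR unadjusted p = 0.0452, adjusted p = 1.00). Thrsp is also made by hepatocytes, and the 6 hepatocyte markers, albumin among them, summed to 0.724 and 1295 CPM in KO-labelled libraries and 251 and 45.8 CPM in WT, with 6 of 6 positive. Without Per3 KO 2, the library with the highest sum, the log2 fold change of Thrsp was 1.27. The part of hepatocyte RNA in the Thrsp values was not tested.

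Scd2, a stearoyl-CoA desaturase widely made outside the adult liver (chromosome 19, 44368166 to 44381352), was at 338 and 212 CPM in KO-labelled libraries against 182 and 181 CPM in WT. The WT values were nearly equal and both lay lower. The log2 fold change was 0.60 ± 0.55 (SE, edgeR adjusted p = 1.00), with 0.21 without Per3 KO 1 and 0.90 without Per3 KO 2. Scd1, the form of liver and fat cells, was at 92.5 and 163 CPM in KO-labelled libraries and 107 and 79.6 CPM in WT, and overlapped. The desaturases resemble each other in sequence, and how shared reads were placed is not known here. The elongases Elovl5 and Elovl6 and the regulator Srebf1, which drives the synthesis enzymes, overlapped between the groups. Elovl6 was at 52.1 and 26.4 CPM in KO-labelled libraries and 50.9 and 17.97 CPM in WT. Srebf1 was at 25.6 and 15.9 CPM in KO-labelled libraries and 29.3 and 8.90 CPM in WT. Mlxipl, which encodes the carbohydrate-sensing factor ChREBP, had 33 and 0.989 reads in KO-labelled libraries against 108 and 1 in WT, so its level differed more within each group than between them. Malic enzyme, Me1, which makes the NADPH that synthesis uses, was at 15.6 and 33.6 CPM in KO-labelled libraries and 20.3 and 17.1 CPM in WT.

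Of the 7 triglyceride assembly genes, 3 were above 0 and 4 below 0 in log2 fold change, and 0 were called. The groups overlapped for all 7, whereas they were apart for 26.0% of all genes tested, and with 7 genes little can be read from this. The most abundant per length was Dgat1, one of the enzymes that add the last fatty acid (chromosome 15, 76332445 to 76342248), at 11.2 and 9.95 CPM in KO-labelled libraries and 9.81 and 32.2 CPM in WT. Its log2 fold change of -0.99 ± 0.70 (SE, edgeR adjusted p = 1.00) was 0.11 without WT 2. Dgat2, an unrelated enzyme with the same reaction, was at 15.99 and 4.60 CPM in KO-labelled libraries and 4.57 and 5.55 CPM in WT. Here Per3 KO 1 stood apart from the other 3 libraries. Gpd1 and Pck1, which supply glycerol 3-phosphate, were highest in Per3 KO 2, with Gpd1 at 1.88 and 8.99 CPM in KO-labelled libraries against 3.08 and 3.18 CPM in WT, and Pck1 at 0.338 and 3.81 CPM against 0.444 and 1.68 CPM. Both are strongly made in liver, and Per3 KO 2 held the most hepatocyte transcripts. The part of hepatocyte RNA in these values was not tested. Gpam, Agpat2 and Lpin1, the acyltransferases and phosphatase of the earlier steps, were each lowest in WT 2 and had WT 1 as their highest library. Gpam was at 0.531 and 2.85 CPM in KO-labelled libraries and 3.47 and 0.0430 CPM in WT. Agpat2 was at 1.45 and 0.796 CPM in KO-labelled libraries and 2.27 and 0.602 CPM in WT. Lpin1 was at 4.85 and 6.85 CPM in KO-labelled libraries and 12.5 and 2.32 CPM in WT, so the KO-labelled values of all 3 genes lay between the WT ones.

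Among droplet genes, Plin2 was the most abundant and was apart between the groups (chromosome 4, 86302469 to 86315963). It was at 137 and 186 CPM in KO-labelled libraries and 112 and 38.9 CPM in WT, with a log2 fold change of 1.10 ± 0.64 (SE, edgeR adjusted p = 1.00). The gap between Per3 KO 1 and WT 1 was small beside that between the WT libraries, and the log2 fold change was 0.53 without WT 2 and 2.06 without WT 1. Plin3, the other coat found in most cells, was at 106 and 113 CPM in KO-labelled libraries and 147 and 45.4 CPM in WT, with KO-labelled values between the WT ones. Plin4, a coat protein of fat cells and muscle, was low throughout, at 1.62 and 4.02 CPM in KO-labelled libraries and 3.39 and 4.90 CPM in WT. Cidec, which drives droplet fusion in white fat cells, had 0 and 0 reads in KO-labelled libraries against 5 and 43 in WT. Cidec did not pass the read filter of the edgeR test. Without that filter its unadjusted p was 0.0300 in edgeR and 0.00867 in DESeq2, with adjusted p of 1.00 and 0.642, and over all alternatives that held it the adjusted p ran from 0.259 to 1.00. Against a floor of 3 reads per library it was at least 17.4-fold lower in KO-labelled libraries, and at least 2.30-fold lower without WT 2.

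Adiponectin, Adipoq (chromosome 16, 23146609 to 23158041), was the single tested gene that lay lower in both KO-labelled libraries. It was at 2.83 and 4.45 CPM in KO-labelled libraries and 5.17 and 8.86 CPM in WT, and the gap between the groups was narrow. The log2 fold change was -0.95 ± 0.83 (SE, edgeR adjusted p = 1.00), or -0.50 without WT 2. Cfd, which encodes the adipokine adipsin, was at 1.79 and 1.496 CPM in KO-labelled libraries and 6.37 and 0.129 CPM in WT. Car3 (chromosome 3, 14863538 to 14872373) was at 224 and 171 CPM in KO-labelled libraries and 213 and 25.3 CPM in WT. WT 2 alone stood low. Its log2 fold change of 0.73 ± 0.90 (SE, edgeR adjusted p = 1.00) was 2.97 without WT 1 and -0.10 without WT 2.

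**Figure D3:**
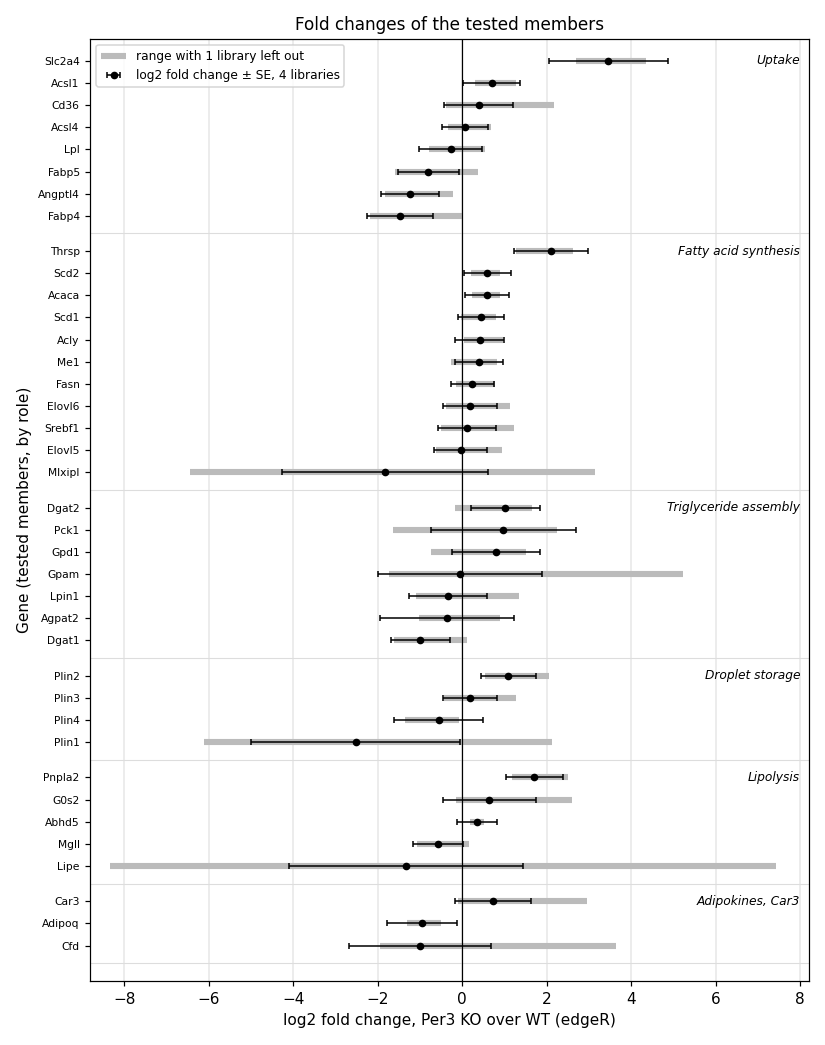
Log2 fold change of KO-labelled over WT for the 38 tested genes, by role (points, with bars of 1 SE), and the range when each of the 4 libraries is left out (grey). The grey bar crosses 0 for 26 of the 38 genes (68.4%), a change of sign that 60.8% of all genes tested also showed. The bars of Mlxipl, Gpam, Plin1, Lipe and Cfd span several log2 units.

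WT 2 stood apart over much of this programme. It was the lowest of the 4 for 24 of the 38 tested members (63.2%), against 35.0% of all genes tested, and the highest for 7 (18.4%), against 31.3%. The members highest in WT 2 were Angptl4, Fabp4, Fabp5, Dgat1, Plin4, Mgll and Adipoq. WT 1 exceeded WT 2 in 28 of 38 members, with a median difference of 0.92 in log2(CPM + 0.5). It did so in 6591 of the 12494 genes tested, with a median difference of 0.09. Of the 38 members, 23 differed by more than 2-fold between the WT libraries. Between Per3 KO 1 and Per3 KO 2 the median difference was -0.06, and 11 of 38 differed by more than 2-fold. Over all genes tested, the share past 2-fold was 24.8% in the KO-labelled pair and 45.1% in the WT pair. The choice of WT library therefore moved the counts. With WT 1 left out, 24 of the 38 lay higher in both KO-labelled libraries than in WT 2, where 40.8% of all genes did, and 7 lay lower, where 36.0% did. With WT 2 left out, 9 of 38 lay higher than WT 1, where 32.1% of all genes did, and 15 lay lower, where 31.5% did. The median log2 fold change over the 38 was 0.92 without WT 1 and -0.12 without WT 2. Over all genes tested it was 0.17 and 0.06.

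**Figure D4:**
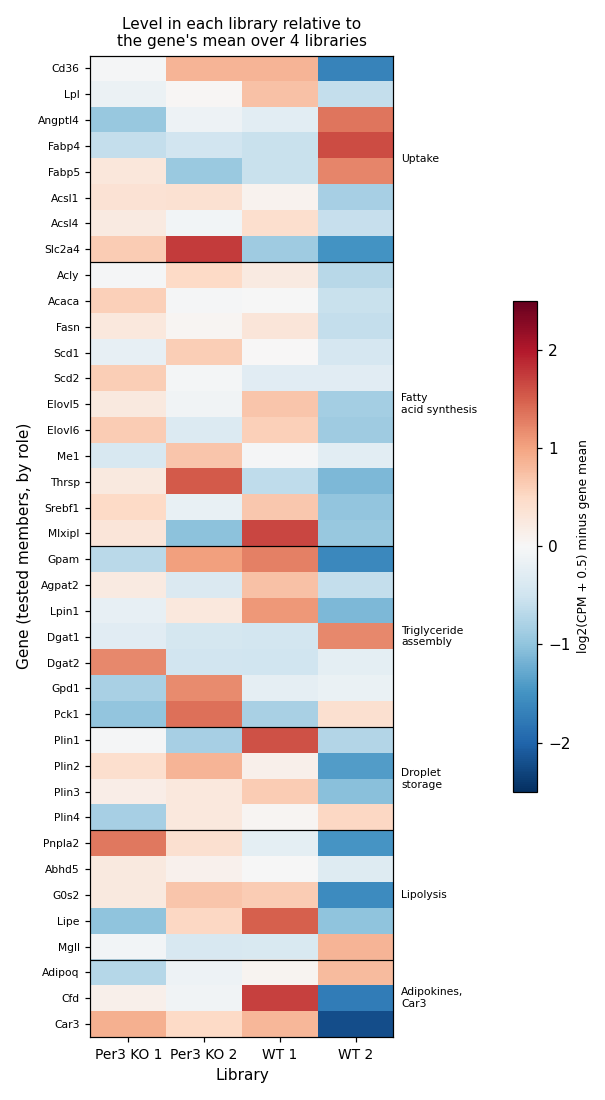
Level of each tested gene in each library, as log2(CPM + 0.5) minus the gene's mean over the 4 libraries (red higher, blue lower), with KO-labelled libraries left and genes in blocks by role. The WT 2 column is blue for 9 of 11 synthesis genes at their lowest value and red for Fabp4, Fabp5, Angptl4, Dgat1, Mgll and Adipoq.

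A further 50 genes of the same pathways were read beside the members. Of 46 tested, 27 were above 0 and 19 below 0 in log2 fold change (median 0.18), and 0 passed the adjusted edgeR test. In both KO-labelled libraries 8 lay higher and 3 lower, together 23.9%, near the 26.0% of all genes tested. WT 2 was the lowest library for 39.1% of them, beside 63.2% of the members and 35.0% of all genes tested, and their median log2 fold change was 0.16 without WT 1 and 0.30 without WT 2. By unadjusted p the leading ones were Elovl3, Acss2, Fads1, Scap, Slc27a1 and Gpihbp1. Elovl3, an elongase of brown fat and skin, had 63 and 49 reads in KO-labelled libraries against 1 and 0 in WT. Its log2 fold change was 5.97 ± 2.48 (SE, edgeR unadjusted p = 0.0454), and it did not pass the adjusted test. Both WT counts lay under the floor of 3 reads, so the size of this fold is uncertain. The 6 brown fat markers, Elovl3 among them, summed to 2.75 and 3.91 CPM in KO-labelled libraries and 2.401 and 3.70 CPM in WT, with Cidea at 0 in all 4 and Ucp1 at 0.435 and 0 CPM in KO-labelled libraries and 0.444 and 0.0860 CPM in WT. Acss2, which makes acetyl-CoA from acetate, was at 9.03 and 5.30 CPM in KO-labelled libraries and 2.32 and 2.11 CPM in WT. Fads1, the delta-5 desaturase, was at 123 and 135 CPM in KO-labelled libraries and 89.8 and 52.6 CPM in WT. Scap, the escort protein of the SREBP factors, was at 11.3 and 10.2 CPM in KO-labelled libraries and 7.07 and 47.8 CPM in WT. Slc27a1, a fatty acid transport protein, was at 4.59 and 7.44 CPM in KO-labelled libraries against 14.0 and 10.4 CPM in WT. Pparg, the nuclear receptor that governs fat-cell genes, was at 28.3 and 21.5 CPM in KO-labelled libraries and 27.1 and 2.54 CPM in WT. WT 2 was thus low for Pparg. Cebpa, the other adipocyte factor among these genes, went the other way. It was at 7.49 and 13.1 CPM in KO-labelled libraries and 1.28 and 12.1 CPM in WT, with WT 1 the lowest. Pparg and Cebpa were chosen after their values were seen.

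Promoter sequence was read because the study concerns a clock gene and the clock factors CLOCK and BMAL1 bind the E-box CACGTG. Windows from 250 bases before to 50 after the start were at hand for 30 of the 42 genes (RefSeq, GRCm38.p6, a build other than the mm9 of the tables). An E-box, which reads alike on both strands, was found in 5 of 30 genes, or 16.7%, against 8.09% of 27025 genes. The SREBP site TCACCCCAC, searched on both strands, was found in 1 of 30, Acsl1, against 0.614% of genes. The D-box TTATGTAA and the DR1 repeat bound by PPARγ with RXR were found in 0 of 30, against 1.11% and 0.0481%. The 5 E-boxes and the Acsl1 site, which reads on the opposite strand, are shown 5′ to 3′ on the gene's strand with up to 30 bases on each side and the motif in capitals. Bases after the start are shown only where the motif reaches past it, so the stretch for Plin2, whose motif spans the start, ends with the motif.
Plin2: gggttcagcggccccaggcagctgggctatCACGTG
Mlxipl: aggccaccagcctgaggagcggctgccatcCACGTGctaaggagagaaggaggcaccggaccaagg
Mgll: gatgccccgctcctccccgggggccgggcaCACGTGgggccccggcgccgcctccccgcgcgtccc
Lipe: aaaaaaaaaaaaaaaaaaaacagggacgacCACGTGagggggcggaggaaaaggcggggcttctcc
Elovl5: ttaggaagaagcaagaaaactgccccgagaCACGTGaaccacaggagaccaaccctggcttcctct
Acsl1: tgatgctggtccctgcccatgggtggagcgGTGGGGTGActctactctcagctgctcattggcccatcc

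In GRCm38 these stretches lie at chr4:86670058-86670093 (minus strand) for Plin2, chr5:135089762-135089827 for Mlxipl, chr6:88724338-88724403 for Mgll, chr7:25396107-25396172 (minus strand) for Lipe, chr9:77917174-77917239 for Elovl5 and chr8:46490860-46490928 for Acsl1. Of the genes with an E-box, Plin2 lay higher in both KO-labelled libraries, whereas Mgll, Elovl5, Lipe and Mlxipl overlapped between the groups. Elovl5 was at 116 and 93.0 CPM in KO-labelled libraries and 160 and 54.3 CPM in WT. Among the genes set apart, Pnpla2, Thrsp, Abhd5 and Adipoq had windows without any of the 4 motifs. A match is a description of these letters and not of binding.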

How the data were processed

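The authors deposited 1 table per library with an estimated count of reads per gene, not normalised, and an RPKM value, per the file headers. The deposited score (Z-score) and the deposited ratio (RPKM over the root mean square) were not used. STAR 2.4.0, Cufflinks, Cuffdiff 2.2.1 and mm9 come from the submitters' processing notes, which give no roles. Strand use and the handling of multiply matching reads are unstated, so values of overlapping genes and close copies are uncertain.

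Counts were rounded, genes kept by filterByExpr (minimum count 10, total 15), libraries scaled by TMM, and groups compared with edgeR 4.0.16 (glmQLFit, glmQLFTest, two-sided, threshold 0.05) in R 4.3.3, adjusted over 12494 genes. SE is the size of the log2 fold change over the square root of F. Genes given in full were the tested members whose groups did not overlap and the highest RPKM of each role. Alternatives were DESeq2 1.42.0, limma 3.58.1 on log2(RPKM + 0.5, 0.1 or 1), DESeq2 size factors, other filters, a replicate block and leaving out each library. The scripts were tested on simulated data, with recovery required only at a spread lower than that of these data. The common coefficient of variation between libraries was 0.742 here in edgeR. That check therefore does not show what the test can find at this spread. Members and lists were chosen with earlier results of these data known. The depth of 27950825 to 64964443 reads sets the floor of 3 reads, which covers counting error alone, as PCR copies were not marked.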

Additional observations from a re-analysis of the deposited data

How the results depend on the processing

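In no alternative did any of the 42 genes pass an adjusted p of 0.05, the smallest being 0.0896 in edgeR without WT 1. Counts of called genes over the whole table were 0 higher and 0 lower in the edgeR test reported, 8 and 11 with DESeq2, 3 and 1 without a filter, and 1 and 0 both with a filter at a mean RPKM of 5 and with limma at each pseudocount. With a library left out they ran from 1 to 4 higher and 0 to 2 lower. The median log2 fold change of the tested members was 0.18, with 0.55 and 0.59 in limma at pseudocounts of 0.5 and 0.1, where the median of all genes also moved to 0.27 and 0.31. It ran from -0.12 to 0.92 when libraries were omitted singly. Of the genes given in full, Lpl turned to 0.15 in limma at every pseudocount and without a filter, and ranged from -0.78 to 0.54 with a library left out. Dgat1 ranged from -1.60 to 0.11, Mgll from -1.07 to 0.17 and Car3 from -0.10 to 2.97, while the other 9 kept their sign, which for the 8 with groups apart follows from how they were chosen. With a replicate block, 1 gene was called higher and no member, and the median of the members was 0.34. Deviations of same-numbered libraries correlated at -0.15. With 2 libraries per group this rests on a single difference within each group. It cannot decide whether equal numbers pair the samples, and the labels do not say. A crossed replicate block, chosen after seeing the data, called 2 higher. Depth limits the genes under about 1 CPM, where 1 read is 0.0137 to 0.0430 CPM.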
